A study of Rattus norvegicus with 11 samples.

Results

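The genes described here make fatty acids and activate them for use in the rat alveolar epithelium. They are 9: ATP citrate lyase (Acly), acetyl-CoA carboxylase alpha (Acaca), fatty acid synthase (Fasn), stearoyl-CoA desaturase (Scd), cytosolic malic enzyme (Me1) and the long-chain acyl-CoA synthetases Acsl1, Acsl3, Acsl4 and Acsl5. Every probe set that the array's annotation gave to exactly 1 gene was taken where that gene was on this list, which gave 24 of the 8740 probe sets tested and 9 of the 4736 genes named. A further probe set whose annotation lists Scd together with other genes was left out by that rule.

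RNA was measured on 11 expression arrays: 4 of type I cells (TI) taken directly from the lung, 4 of type II cells (TII) taken directly from the lung, and 3 of TII cells that had been cultured until day 7. These fresh and cultured groups follow the sample descriptions and titles, since the source field names isolated TI cells on all 11. Strain, age and number of animals are not given in the labels, nor is any treatment other than culture. It is not stated whether arrays of a group are separate preparations, so the p-values measure the spread between these arrays, which may be technical.

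In fatty acid synthesis, citrate exported from mitochondria is split by Acly into acetyl-CoA, Acaca turns acetyl-CoA into malonyl-CoA, and Fasn builds palmitate from both with reducing power from NADPH, of which Me1 is a source. Scd puts the first double bond into palmitate and stearate, and the Acsl enzymes couple fatty acids to coenzyme A so that they can enter phospholipids, storage lipid or oxidation. TII cells make the phospholipid-rich surfactant of the alveolus, in which phosphatidylcholine with saturated chains is the main lipid, whereas the flat TI cells form most of the gas exchange surface.

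Arrays of a group correlated across probe sets at r = 0.978 to 0.998, and arrays of different groups at 0.913 to 0.947. Defining markers followed the labels in part. All 5 measured type I markers were higher in fresh TI than in fresh TII cells, and the log2 of their summed signal was 9.82 to 9.93 in fresh TII, 10.97 to 11.5 in cultured TII and 13.2 to 13.3 in fresh TI cells. The same sum over 6 type II markers was 14.5 to 14.6, 9.12 to 9.82 and 11.6 to 13.2, so the fresh TI arrays held surfactant protein RNA and differed among themselves in it. Because these are RNAs of bulk isolates, fewer cells of a type and less RNA per cell cannot be told apart in any result below.

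The promoters of Acly, Scd and Me1 are shown because these genes stand for different patterns in the data: Acly and Scd were lower in both other groups than in fresh TII cells, Scd far more so, and Me1 was lower in fresh TI cells but higher in culture. RefSeq sequences on GRCr8 matched 7 of the 9 genes. The 250 bases before the annotated start are printed 5′ to 3′ on the gene's strand for Acly (chr10:85963632-85963881, minus strand), Scd (chr1:253231732-253231981, minus strand) and Me1 (chr8:96540245-96540494, minus strand). Capitals mark matches, on either strand, to CCAAT (the box bound by NF-Y) and to GGGCGG (the GC box bound by Sp1 family factors, which reads CCGCCC on the other strand).
Acly: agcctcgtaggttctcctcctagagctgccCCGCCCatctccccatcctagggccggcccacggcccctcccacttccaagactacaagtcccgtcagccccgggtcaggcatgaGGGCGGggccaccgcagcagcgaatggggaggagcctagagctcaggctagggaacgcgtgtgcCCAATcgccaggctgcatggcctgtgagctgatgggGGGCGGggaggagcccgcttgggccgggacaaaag
Scd: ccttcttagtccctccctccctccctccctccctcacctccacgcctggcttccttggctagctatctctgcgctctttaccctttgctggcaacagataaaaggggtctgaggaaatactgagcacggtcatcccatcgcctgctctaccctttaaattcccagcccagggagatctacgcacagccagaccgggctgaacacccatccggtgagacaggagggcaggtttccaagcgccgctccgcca
Me1: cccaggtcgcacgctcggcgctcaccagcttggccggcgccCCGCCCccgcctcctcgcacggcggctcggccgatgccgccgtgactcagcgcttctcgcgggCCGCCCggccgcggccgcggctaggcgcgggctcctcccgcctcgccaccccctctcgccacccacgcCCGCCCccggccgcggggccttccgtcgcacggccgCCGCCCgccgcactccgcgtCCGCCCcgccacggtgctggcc

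Acly held 1 CCAAT box, 71 bases before the start, and 3 GC boxes, Me1 held 5 GC boxes and no CCAAT box, and Scd held neither in this window. Among the other promoters, that of Acsl3 had a CCAAT box at 73 bases, directly before a GC box at 68, and 4 GC boxes in all. Acsl1 had a CCAAT box at 95 bases, Acsl4 had 2 GC boxes that overlap, and Acsl5 had no match. Of 33469 rat promoters of this length, 34.0% held CCAAT and 30.5% GGGCGG. The E-box CACGTG (5.6% of promoters) and TCACNCCAC, the core of a sterol regulatory element (1.0%), were searched on both strands and matched none of the 7. These are letter matches in a short window and say nothing about binding.

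Signal of most of these probe sets was lower outside fresh TII cells. Of the 24, 19 had lower and 2 higher signal in fresh TI than in fresh TII cells at an adjusted p under 0.05, where 54.7% of all probe sets passed (20.4% lower and 34.3% higher). The median difference of the 24 was -1.39 on the log2 scale, against 0.12 over all probe sets. Past the threshold and at least 2-fold lower were 15, and 5.22% of all probe sets. Past it and at least 2-fold higher were 0, and 2.28% of all. Counted by the brightest probe set of each gene, 7 of the 9 genes were lower, Acsl1 was higher and Acaca did not pass, where 54.2% of genes passed, 21.2% lower and 33.0% higher. The arrays of both groups did not overlap for 21 of the 24, and for 50.7% of all probe sets. With the standard deviations of the arrays matched, the median of all probe sets was 0.04, and 21 of the 24 passed. The share higher among all called probe sets was then 52.9% in place of 62.6%.

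After 7 days of culture, 14 of the 24 probe sets fell and 3 rose against fresh TII cells, where 33.4% of all probe sets passed, 14.3% lower and 19.1% higher. Their median difference was -0.59, against -0.01 over all probe sets. Past the threshold, 8 fell at least 2-fold, as did 4.22% of all, and 2 rose as much, as did 4.45%. By gene, 5 of 9 fell (Fasn, Acly, Scd, Acsl3 and Acsl4), Me1 rose, and Acaca, Acsl1 and Acsl5 did not pass, where 34.6% of genes passed, 14.0% lower and 20.5% higher. With the mean of a gene's probe sets in place of the brightest one, Acsl1 (-0.49 ± 0.06, adjusted p = 2.44e-05) and Acsl5 (-0.41 ± 0.11, adjusted p = 0.01) also passed, which made 8 genes in place of 6. Groups did not overlap for 20 of the 24, and for 43.3% of all. The fresh TI and the cultured TII comparison use the same 4 fresh TII arrays, so the values of a gene in each are given side by side and not as independent evidence of each other.

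**Figure D1:**
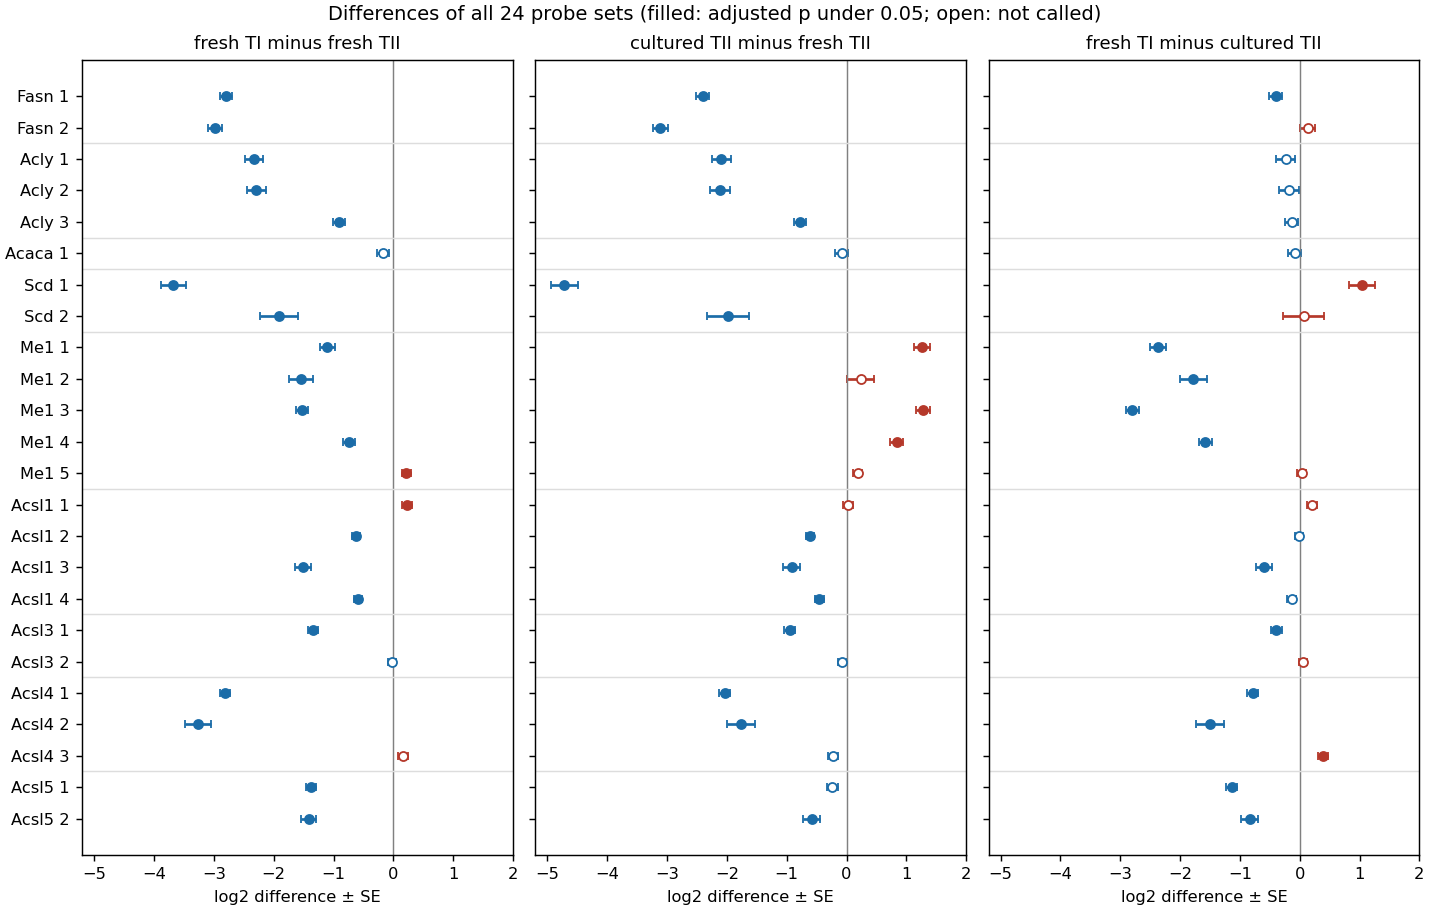
Differences of all 24 probe sets in the 3 comparisons, on the log2 scale with standard errors; probe sets of a gene are numbered from the brightest to the dimmest over the 11 arrays, filled points passed an adjusted p of 0.05 and open points did not. Filled points of Fasn, Acly, Scd and Acsl4 all lie left of 0 in the left and middle panels. Of Me1, 4 of 5 probe sets lie left of 0 in the left panel and all 5 right of 0 in the middle panel, 3 of them filled.

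Fatty acid synthase signal was several-fold lower in fresh TI and in cultured TII than in fresh TII cells. For its brighter probe set (Fasn probe set 1, Entrez gene 50671), the deposited log2 signal was 9.66, 9.55, 10.03 and 9.61 in fresh TII cells, 7.31, 7.31 and 7.30 in cultured TII cells, and 6.80, 6.89, 7.06 and 6.89 in fresh TI cells. No array of a group reached into the range of another group. The means were 9.71 ± 0.22 (SD, n = 4), 7.31 ± 0.004 (n = 3) and 6.91 ± 0.11 (n = 4). Fresh TI cells differed from fresh TII cells by -2.80 ± 0.10 (SE, adjusted p = 4.6e-10), a 6.98-fold lower signal, and cultured cells by -2.40 ± 0.11 (adjusted p = 2.13e-09), 5.29-fold lower. The second Fasn probe set ran at 9.08 to 9.56 in fresh TII, 6.10 to 6.18 in cultured TII and 6.0 to 6.45 in fresh TI cells, with differences of -2.98 ± 0.12 and -3.11 ± 0.13. It was lower in both groups too, while its cultured and fresh TI arrays overlapped.

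Acly, which supplies the acetyl-CoA, was likewise highest in fresh TII cells. Its brightest probe set (Entrez gene 24159) read 9.95, 9.85, 10.18 and 9.86 in fresh TII, 8.01, 7.75 and 7.83 in cultured TII, and 7.52, 7.97, 7.84 and 7.21 in fresh TI cells. Fresh TII arrays stood well above all others, and the cultured and fresh TI arrays overlapped. The difference was -2.33 ± 0.15 in fresh TI cells (adjusted p = 5.03e-08, 5.02-fold lower) and -2.09 ± 0.16 in culture (adjusted p = 2.7e-07, 4.27-fold lower). Acly probe set 2, made from the same database sequence as probe set 1, differed by -2.29 ± 0.15 and -2.11 ± 0.17. Probe set 3, from another sequence, moved less, by -0.91 ± 0.10 in fresh TI cells and -0.78 ± 0.11 in culture, both past the threshold. The 3 probe sets therefore shared a direction and differed in size.

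Acaca, which commits acetyl-CoA to fatty acid synthesis, did not pass the threshold in any comparison. Its only probe set (Entrez gene 60581) read 5.21, 5.45, 5.46 and 5.61 in fresh TII, 5.38, 5.29 and 5.39 in cultured TII, and 5.38, 5.04, 5.21 and 5.43 in fresh TI cells. All 3 groups overlapped. The difference was -0.17 ± 0.10 in fresh TI cells (adjusted p = 0.165) and -0.08 ± 0.11 in culture (adjusted p = 0.639). The probe set's mean signal lay at the 46.8th percentile of all probe sets, so it was not among the dimmest. Being the only one, it cannot show by itself that Acaca RNA was unchanged. At a similar level (percentile 48.7), Acsl4 probe set 3 also passed in neither comparison with fresh TII cells, although Acsl4 probe sets 1 and 2 did. With array weights the fresh TI difference was -0.27 and passed (adjusted p = 0.0274).

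Scd had the largest differences of the 24 probe sets in both comparisons with fresh TII cells. Its brighter probe set (Entrez gene 246074) read 9.31, 9.999, 10.16 and 10.03 in fresh TII, 5.97, 6.59, 6.50 and 5.72 in fresh TI, and 5.04, 5.20 and 5.23 in cultured TII cells. The groups were fully apart, and the order of the lower groups was the reverse of that of Fasn probe set 1, with culture lowest. In culture it fell by 4.72 ± 0.22 (adjusted p = 3.28e-09), a 26.3-fold fall, and fresh TI cells differed from fresh TII cells by -3.68 ± 0.21 (adjusted p = 1.78e-08), 12.8-fold lower. The second Scd probe set was among the dimmest, at the 4.87th percentile of mean signal. It read 2.57, 4.63, 3.54 and 4.13 in fresh TII cells, a wide spread, against 1.70 to 1.76 in culture and 1.60 to 1.98 in fresh TI cells. Its differences, -1.98 ± 0.34 in culture and -1.92 ± 0.32 in fresh TI cells, passed as well.

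Me1 went the other way in culture. Me1 probe set 1 (Entrez gene 24552) read 6.15, 5.93, 5.88 and 5.90 in fresh TII, 7.48, 7.34 and 6.86 in cultured TII, and 4.69, 4.97, 4.95 and 4.83 in fresh TI cells. The groups did not overlap, with cultured cells highest and fresh TI cells lowest. It rose by 1.26 ± 0.13 in culture (adjusted p = 6.75e-06, 2.40-fold) and was -1.10 ± 0.12 in fresh TI cells (adjusted p = 1.18e-05, 2.15-fold lower), so that cultured and fresh TI cells were 5.15-fold apart. Me1 probe sets 3 and 4 rose by 1.28 ± 0.11 and 0.84 ± 0.11 in culture, and were -1.52 ± 0.10 and -0.74 ± 0.10 in fresh TI cells. Probe sets 1 and 3 come from the same database sequence, and probe set 4 from another, so the rise was seen with at least 2 source sequences.

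In Me1 probe sets 2 and 5 the difference in culture did not pass. Me1 probe set 2 read 6.86, 6.64 and 6.26 in cultured cells, within reach of 6.52, 6.38, 6.15 and 6.35 in fresh TII cells, and its difference of 0.24 ± 0.22 did not pass (adjusted p = 0.492). It was lower in fresh TI cells, at -1.54 ± 0.21, like probe sets 1, 3 and 4. Probe set 5 was dim (10.9th percentile) and ran between 2.88 and 3.33 on all 11 arrays. In culture it stood at 0.19 ± 0.08 (adjusted p = 0.0846), with every cultured array above every fresh TII array, and passed with array weights (0.17, adjusted p = 0.0372). Its difference of 0.22 ± 0.07 in fresh TI cells passed (adjusted p = 0.0203), but not after quantile normalization (0.08, adjusted p = 0.39) or without fresh TII array 1 (0.18, adjusted p = 0.067). With the mean of all 5 probe sets standing for the gene, Me1 still rose in culture, by 0.76 ± 0.10, and was -0.94 ± 0.09 in fresh TI cells.

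**Figure D2:**
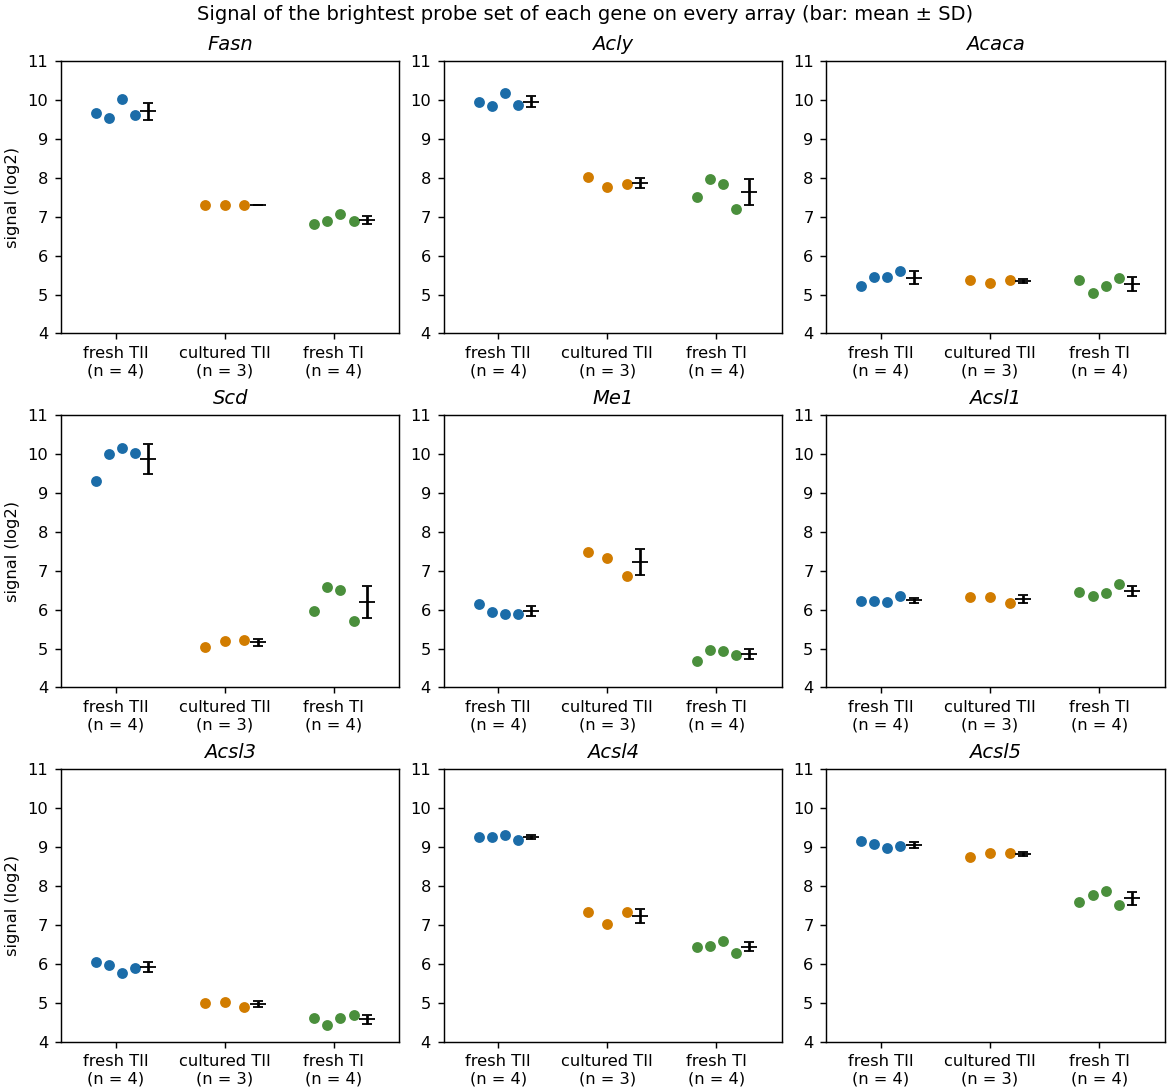
Deposited log2 signal of the brightest probe set of each of the 9 genes on every array, with the group mean and its standard deviation; axes run from 4 to 11 in every panel and levels are not comparable between genes. Fresh TII arrays are highest for Fasn, Acly, Scd, Acsl3, Acsl4 and Acsl5, cultured TII arrays are highest for Me1, and the groups of Acaca overlap.

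Among the acyl-CoA synthetases, Acsl4, which prefers arachidonate and other polyunsaturated fatty acids, differed most. Acsl4 probe set 1 (Entrez gene 113976) read 9.25, 9.26, 9.31 and 9.19 in fresh TII, 7.32, 7.02 and 7.32 in cultured TII, and 6.44, 6.45, 6.58 and 6.29 in fresh TI cells. The order was fresh TII, cultured TII, fresh TI, with no overlap at either step. Fresh TI cells were -2.82 ± 0.09 from fresh TII cells (adjusted p = 2.08e-10, 7.04-fold lower), and in culture it fell by 2.03 ± 0.09 (adjusted p = 2.45e-09, 4.09-fold). Acsl4 probe set 2 read 7.31, 7.28, 7.07 and 6.96, then 5.37, 5.41 and 5.38 in culture, and 3.60, 4.45, 4.29 and 3.22 in fresh TI cells. It gave the same order with a wide spread among fresh TI arrays, at -3.27 ± 0.22 and -1.77 ± 0.23. Probe set 3 stayed between 5.16 and 5.70 on every array, and passed in neither comparison with fresh TII cells (0.16 ± 0.08 in fresh TI, adjusted p = 0.0994; -0.23 ± 0.09 in culture, adjusted p = 0.0631). Without fresh TI array 3 both passed, at 0.22 (adjusted p = 0.0325) and -0.23 (adjusted p = 0.0439).

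Acsl3, an enzyme of the endoplasmic reticulum and lipid droplets, was lower in both groups. Its brighter probe set (Entrez gene 114024) read 6.03, 5.98, 5.75 and 5.89 in fresh TII, 4.996, 5.01 and 4.88 in cultured TII, and 4.60, 4.42, 4.60 and 4.67 in fresh TI cells. The 3 groups were apart in the same order as for Acsl4. The differences were -1.34 ± 0.08 in fresh TI cells (adjusted p = 3.65e-08, 2.53-fold lower) and -0.95 ± 0.09 in culture (adjusted p = 1.84e-06, 1.93-fold lower). The other Acsl3 probe set was dim, at the 6.96th percentile, stayed between 2.57 and 2.81 throughout, and passed in no comparison on the deposited scale. After matching the standard deviations of the arrays it was lower in fresh TI than in fresh TII cells (-0.24, adjusted p = 0.0155) and than in cultured cells (-0.21, adjusted p = 0.0319).

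Acsl5, an enzyme of mitochondria and endoplasmic reticulum, kept most of its signal in culture. Acsl5 probe set 1 (Entrez gene 94340) read 9.15, 9.08, 8.97 and 9.03 in fresh TII, 8.75, 8.86 and 8.85 in cultured TII, and 7.59, 7.77, 7.87 and 7.51 in fresh TI cells. Cultured arrays all lay just below the fresh TII arrays and far above the fresh TI arrays. Fresh TI cells differed by -1.37 ± 0.08 (adjusted p = 4.42e-08, 2.59-fold lower), whereas the culture difference of -0.24 ± 0.09 did not pass (adjusted p = 0.0651). Probe set 2, made from the same database sequence, fell by 0.58 ± 0.14 in culture (adjusted p = 0.0054) and was -1.42 ± 0.13 in fresh TI cells. The probe set 1 difference in culture passed under 8 of 22 alternative settings, among them quantile normalization (-0.32, adjusted p = 0.00655) and the fits without fresh TI array 3 or 4 (adjusted p = 0.0429 and 0.0359).

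Acsl1, which feeds fatty acids into both lipid synthesis and mitochondrial oxidation, gave probe sets that disagreed. The brightest (Acsl1 probe set 1, Entrez gene 25288) ran at 6.21 to 6.34 in fresh TII, 6.17 to 6.33 in cultured TII and 6.36 to 6.66 in fresh TI cells. It was higher in fresh TI cells by 0.23 ± 0.08 (adjusted p = 0.0252, 1.17-fold) and 0.03 ± 0.08 in culture (adjusted p = 0.849). The other 3 Acsl1 probe sets were lower in both groups than in fresh TII cells. Of these, probe sets 3 and 4 were dim, at percentiles 22.8 and 14.3 of mean signal. Probe sets 1 and 2 lay at percentiles 68.1 and 57.4. Probe set 2 differed by -0.62 ± 0.07 and -0.61 ± 0.07, probe set 3 by -1.51 ± 0.13 and -0.92 ± 0.14, and probe set 4 by -0.59 ± 0.07 and -0.45 ± 0.07, in fresh TI and cultured cells respectively. Probe sets 1 and 4 were made from the same database sequence, yet moved in opposite directions in fresh TI cells. The mean of the 4 probe sets was -0.62 ± 0.06 in fresh TI cells (adjusted p = 1.54e-06), so the direction for the gene depends on which probe set stands for it. The small difference of probe set 1 did not pass without fresh TII array 1, 2 or 3 or fresh TI array 4 (adjusted p = 0.0579 to 0.0641), nor after centring each array on its median (adjusted p = 0.0529). Against cultured cells it stood at 0.20 ± 0.08 (adjusted p = 0.0559) and passed without fresh TI array 2 (0.24, adjusted p = 0.0288).

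Set directly against each other, fresh TI and cultured TII cells were at least 2-fold apart in probe sets of Me1, Acsl4, Acsl5 and Scd. Of the 24 probe sets, 11 had lower and 2 higher signal in fresh TI cells, where 59.9% of all probe sets passed, 24.2% lower and 35.7% higher, and the median was -0.21 against 0.13 for all probe sets. Past the threshold, 6 were at least 2-fold lower (6.53% of all probe sets) and 1 at least 2-fold higher (2.41%). The groups did not overlap for 15 (57.3%). By gene, 5 of 9 were lower, Scd was higher and 3 did not pass, where 60.0% of genes passed, 25.8% lower and 34.2% higher. With the mean of a gene's probe sets, 4 genes passed in place of 6, since Scd (0.55 ± 0.26, adjusted p = 0.0825) and Fasn (-0.13 ± 0.11, adjusted p = 0.292) no longer did. Matching the standard deviations of the arrays brought the median of all probe sets to 0.02 and the share higher among called probe sets from 59.7% to 49.7%. The order of these groups varied by gene.

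Me1 set the groups widest apart. Me1 probe set 3 was -2.80 ± 0.11 (6.97-fold lower in fresh TI cells), Acsl5 probe set 1 -1.14 ± 0.09 (2.20-fold lower) and Acsl4 probe set 1 -0.78 ± 0.09 (1.72-fold lower). Scd probe set 1 was 1.04 ± 0.22 higher in fresh TI cells (adjusted p = 0.00171, 2.05-fold), and the dim Scd probe set did not pass (0.06 ± 0.34, adjusted p = 0.877). Differences of the other genes were smaller. Acsl3 probe set 1 was -0.39 ± 0.09 and Fasn probe set 1 was -0.40 ± 0.11, both past the threshold, while Fasn probe set 2 stood at 0.13 ± 0.13 (adjusted p = 0.377). No Acly probe set passed, at -0.23 ± 0.16, -0.18 ± 0.17 and -0.13 ± 0.11, nor did Acaca at -0.09 ± 0.11. Acsl4 probe set 3 was higher in fresh TI cells by 0.39 ± 0.09 (adjusted p = 0.00216), opposite to the other Acsl4 probe sets.

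The fresh TI arrays were not alike in these genes. Fresh TI arrays 2 and 3 lay above arrays 1 and 4 for 14 of the 24 probe sets (58.3%) and below both for 2 (8.33%), whereas over all probe sets the shares were 25.5% and 36.0%. The gap between the means of these pairs was 0.96 for Acsl4 probe set 2, 0.84 for Me1 probe set 2, 0.70 for Scd probe set 1 and 0.54 for Acly probe set 1. It was 0.13 for Fasn probe set 1 and -0.13 for Acsl3 probe set 1, where the arrays interleaved. Probe sets of a gene differed in this. Fasn probe set 2 (0.33) and Acsl1 probe set 3 (0.30) had arrays 2 and 3 above. Acsl1 probe set 1 (-0.17) and the Acaca probe set (-0.28) had arrays 2 and 3 below. The same arrays had more surfactant protein signal: Sftpc read 11.94, 12.41, 12.51 and 10.73 on fresh TI arrays 1 to 4, and Sftpb 9.20, 10.04, 9.95 and 8.22. The part of type II RNA in the lipogenic signal of fresh TI arrays was not tested. Without arrays 2 and 3, a choice made after seeing the data, the fresh TI minus cultured TII differences of Acly probe sets 1 and 2 passed, at -0.50 (adjusted p = 0.00617) and -0.48 (adjusted p = 0.00808) in place of -0.23 and -0.18.

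**Figure D3:**
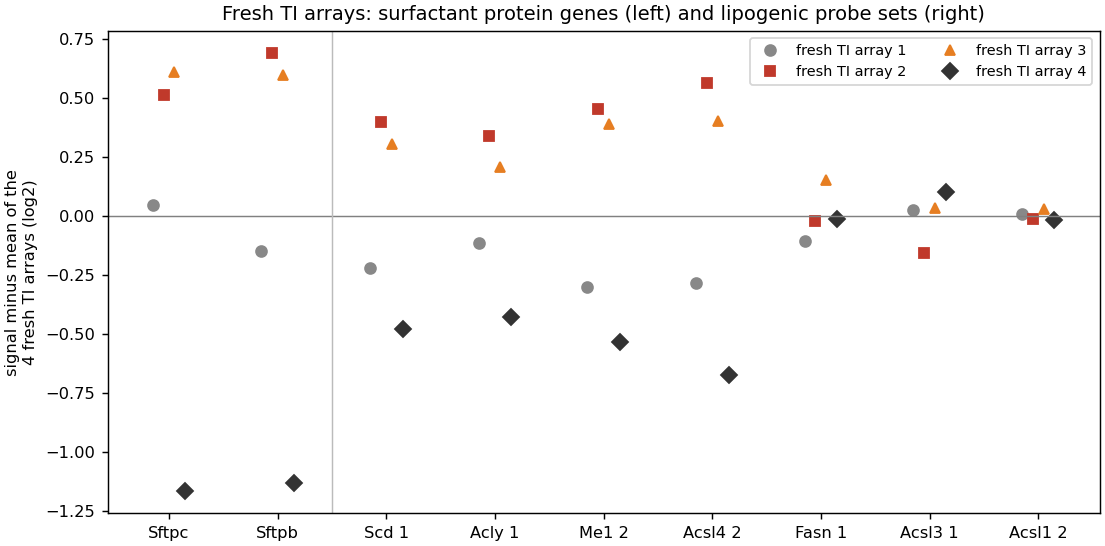
Signal of each fresh TI array minus the mean of the 4 fresh TI arrays, on the log2 scale, for the surfactant protein genes Sftpc and Sftpb (left of the line) and 7 lipogenic probe sets (right). Arrays 2 and 3 lie above arrays 1 and 4 for both surfactant genes and for Scd 1, Acly 1, Me1 2 and Acsl4 2, and the arrays lie close together for Fasn 1, Acsl3 1 and Acsl1 2. Among those not shown, Fasn 2 and Acsl1 3 had arrays 2 and 3 above, and Acsl1 1 and Acaca 1 had them below.

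The pattern of Fasn over the 11 arrays was compared with that of 641 genes whose standard deviation was at least 0.5. The most similar were Tc2n (Pearson r = 0.992), the folate hydrolase Ggh (0.991), the sterol sensor partner Insig1 (0.987), the tautomerase Ddt (0.986), the complement regulator C4bpa (0.986) and the club cell secretoglobin Scgb1a1 (0.984). Within the list, Fasn probe set 1 correlated at 0.986 with Acly probe set 1, 0.986 with Acsl4 probe set 1, 0.966 with Acsl3 probe set 1 and 0.937 with Scd probe set 1. The value was 0.760 for Acsl5 probe set 1, 0.448 for Acaca, 0.167 for Me1 probe set 1 and -0.588 for Acsl1 probe set 1. The other Acsl1 probe sets, 2 to 4, correlated at 0.965, 0.932 and 0.984. These values describe 11 arrays in 3 groups and mostly restate the group differences given above.

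Most markers of airway cells, like Fasn, had lower signal in fresh TI and cultured TII than in fresh TII cells. So did all 6 measured type II markers. Among all genes, 21.2% were lower and 33.0% higher in fresh TI than in fresh TII cells, and 14.0% fell and 20.5% rose in culture. Of 5 measured airway markers, fresh TI cells had 4 at lower and 1 at higher signal, and 4 fell in culture while the other did not pass. The exception in both was the basal cell keratin Krt5, at 0.45 ± 0.10 in fresh TI cells (adjusted p = 0.00233) and -0.13 ± 0.11 in culture (adjusted p = 0.391). The log2 of their summed signal was 12.045 to 12.3 in fresh TII, 8.76 to 9.46 in cultured TII and 8.91 to 9.02 in fresh TI cells. Scgb1a1 differed by -3.31 ± 0.13 in fresh TI cells and -2.62 ± 0.14 in culture, the club cell cytochrome Cyp2f4 by -4.07 ± 0.09 and -4.39 ± 0.10, and Aldh1a1 by -3.09 ± 0.21 and -3.54 ± 0.23. The ciliated cell factor Foxj1, already low in fresh TII cells (mean 4.35), differed by only -0.29 ± 0.10 and -0.38 ± 0.11. Their part in the lower lipogenic signal was not tested. Of the adipocyte and lipofibroblast list, 3 of 11 measured markers had higher and 1 lower signal in fresh TI cells, and 4 rose in culture, namely Fabp4 by 2.08 ± 0.28, Plin2 by 1.07 ± 0.21, Pparg by 0.78 ± 0.18 and Cfd by 0.61 ± 0.16. The log2 sum of that list was 10.4 to 10.49 in fresh TII, 10.45 to 10.9 in cultured TII and 10.6 to 10.7 in fresh TI cells, and its part in the lipogenic signal was not tested.

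Leukocyte markers went in both directions. The fibroblast and endothelial markers that passed in fresh TI against fresh TII cells all had more signal there. Over all genes, 33.0% passed as higher and 21.2% as lower in that comparison, and 20.5% and 14.0% in culture. Of 9 macrophage and leukocyte markers, 3 were higher and 3 lower in the fresh TI group and 2 rose and 2 fell in culture, with log2 sums of 13.1 to 13.4 in fresh TII, 10.4 to 11.2 in cultured TII and 11.2 to 12.9 in fresh TI cells. That sum is carried by Lyz2 and Cd74, which TII cells also express. Of 11 fibroblast and smooth muscle markers, 6 passed with more signal in fresh TI than in fresh TII cells and 0 with less. The largest of these differences were Col3a1 at 2.52 ± 0.47, Eln at 1.82 ± 0.20, Col1a2 at 1.33 ± 0.37 and Col1a1 at 1.31 ± 0.34. In culture 1 marker of this list rose and 1 fell. Its log2 sums were 9.55 to 9.96, 9.89 to 10.45 and 10.7 to 11.6 in the same order of groups. Of the 4 endothelial markers, 2 passed with more signal in fresh TI than in fresh TII cells and 0 with less. In culture 1 of them fell and 0 rose. Their sums were 7.65 to 7.75, 7.58 to 7.63 and 7.85 to 8.16. The part of stromal RNA in the lipogenic differences was not tested. As a measure of RNA quality, the log2 signal of the beta-actin control towards the 3′ end exceeded that towards the 5′ end by -0.33 to -0.08 on cultured arrays, 0.32 to 0.43 on fresh TII and 0.21 to 0.43 on fresh TI arrays. The GAPDH control gave 0.30 to 0.45 on cultured, 0.47 to 0.57 on fresh TII and 0.41 to 0.685 on fresh TI arrays. With GAPDH the cultured and fresh TI arrays overlapped. The bearing of these on the culture differences of the lipogenic genes was not tested.

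Genes around this pathway were counted from lists of the pathway's parts, with the brightest probe set per gene. Over all genes, 21.2% had lower and 33.0% higher signal in fresh TI than in fresh TII cells, and 14.0% fell and 20.5% rose in culture. For the NADPH that Fasn uses, 4 of 10 listed genes were measured, and 2 had lower signal in fresh TI cells while the others did not pass (Idh1 -1.81 ± 0.22 and the transketolase Tkt -1.02 ± 0.13), with another Idh1 probe set at -0.20. In culture only the transaldolase Taldo1 passed, rising by 0.90 ± 0.33. Among 12 measured genes of citrate, acetyl-CoA and malonyl-CoA supply, 8 had lower and 1 higher signal in fresh TI cells, where the median was -0.43 against 0.11 for all genes. The mitochondrial citrate carrier Slc25a1 was -1.12 ± 0.12, the pyruvate carrier subunit Mpc1 -0.85 ± 0.12 and the dicarboxylate carrier Slc25a10 -0.62 ± 0.08, while the pyruvate dehydrogenase subunit Pdha1 was 0.98 ± 0.09. Carriers of the inner mitochondrial membrane were therefore among the lower genes. In culture 3 of the 12 fell and 2 rose, with Slc25a10 at -0.51 ± 0.09, Slc25a1 at -0.43 ± 0.13 and Acacb, the mitochondrial counterpart of Acaca, at -0.33 ± 0.10, against Dlat at 0.61 ± 0.09 and Mdh1 at 0.50 ± 0.12. Slc25a10 probe set 2 also fell (-0.48), and probe set 3 did not pass (-0.10, adjusted p = 0.442).

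Of 6 measured elongation and desaturation genes, 3 had lower and 1 higher signal in fresh TI cells, and 1 fell and 2 rose in culture. The gene Scd2, a paralog of Scd, was -0.83 ± 0.19 in fresh TI cells and fell by 0.80 ± 0.20 in culture, with another Scd2 probe set at 0.23 in fresh TI cells. In culture the reductase of elongation Hsd17b12 rose by 0.99 ± 0.10 and the elongase Elovl5 by 0.48 ± 0.11. The cytochrome b5 reductase Cyb5r3, which passes electrons towards the desaturases, was 0.999 ± 0.08 higher in fresh TI cells with its brightest probe set, and 3 of its 4 others were also higher, but probe set 3 was lower, at -0.72 (adjusted p = 1.62e-05). The dehydratase Hacd3 was -1.27 ± 0.11 there and Cyb5a -0.54 ± 0.12, each with a further probe set that was higher, at 0.25 and 0.40. Of 9 other genes of acyl-CoA synthesis, transport and hydrolysis, 4 had lower and 2 higher signal in fresh TI cells. The acyl-CoA binding protein Dbi was -1.94 ± 0.22 and the thioesterases Acot2 and Acot7 were -0.67 ± 0.08 and 0.49 ± 0.07, with another Acot7 probe set at -0.16. In culture 3 fell and the others did not pass, with Acot2 at -0.72 ± 0.08, Acot1 at -0.60 ± 0.17 and the fatty acid transporter Slc27a2 at -0.45 ± 0.07. Acot2 probe set 2 passed neither in fresh TI cells (-0.205, adjusted p = 0.0592) nor in culture (-0.01, adjusted p = 0.956).

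The 13 measured genes of glycerolipid and phosphatidylcholine synthesis split evenly in fresh TI cells, with 5 higher and 5 lower and a median of -0.05. Of all genes, 33.0% were higher and 21.2% lower there, and 20.5% rose and 14.0% fell in culture. Choline kinase alpha (Chka) was -1.54 ± 0.11, Cept1, which transfers phosphocholine or phosphoethanolamine to diacylglycerol, -0.79 ± 0.19, and the phosphatidylinositol synthase Cdipt 0.79 ± 0.07. Cds1, which makes CDP-diacylglycerol, was -0.43 ± 0.07 with its brightest probe set and -0.76 and -2.12 with others. In culture 3 fell and 2 rose, with Chka at -0.54 ± 0.12, Cds1 at -0.50 ± 0.07, Cdipt at 0.96 ± 0.08 and the triglyceride enzyme Dgat1 at 0.37 ± 0.08. Chka probe sets 2 and 3 were also lower in fresh TI cells, at -0.70 and -0.45. In culture neither passed (-0.26 and 0.30).

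Of 20 measured transcription factors of lipogenesis and their regulators, 5 had lower and 2 higher signal in fresh TI cells, and 6 fell and 2 rose in culture. Insig1, which holds the sterol regulatory factors in the endoplasmic reticulum and is itself one of their targets, was -2.60 ± 0.09 and -2.12 ± 0.10 in fresh TI and cultured cells. Cebpa was -0.88 ± 0.08 and -0.97 ± 0.09, Cebpd was -1.36 ± 0.19 in fresh TI cells, and the thyroid hormone receptor Thra fell by 1.04 ± 0.09 in culture. The other Cebpa probe set did not pass, at 0.08 and -0.01, nor did Cebpd probe set 2 in fresh TI cells (0.12). Thra probe set 3 did not pass in culture (-0.09). Cebpd probe set 3 was lower in fresh TI cells (-1.68) and Thra probe set 2 fell in culture (-0.45). Pparg was 0.55 ± 0.17 higher in fresh TI cells and rose by 0.78 ± 0.18 in culture. Srebf1, the sterol regulatory factor best known for Fasn and Scd, was lower by a smaller amount, -0.65 ± 0.09 and -0.51 ± 0.10, and is named here after its values were seen. Among 15 genes of kinase and insulin control, 4 had lower and 2 higher signal in fresh TI cells and 5 fell and 2 rose in culture. Medians of that list were 0.01 and -0.11. The AMP-activated kinase subunits Prkab1 (-1.29 ± 0.09 and -1.19 ± 0.09) and Prkaa2 (-0.38 ± 0.09 and -0.54 ± 0.10) were lower in both, and Akt1 rose by 0.79 ± 0.11 in culture.

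Oxidation and cholesterol genes were counted for comparison. All genes gave 21.2% lower and 33.0% higher in fresh TI cells, and 14.0% lower and 20.5% higher in culture. Of 30 fatty acid oxidation genes, 16 had lower and 4 higher signal in fresh TI cells (median -0.28), including Acadm at -1.41 ± 0.16, the carnitine transferase Cpt1a at -1.30 ± 0.12 and Hadhb at -1.29 ± 0.18. In culture 7 fell and 4 rose (median -0.07). Cpt1a fell by 1.09 ± 0.13 and Eci1 was at -0.94 ± 0.10, while Ucp2 rose by 0.82 ± 0.11 and Acadl by 1.05 ± 0.12, with another Acadl probe set at -0.07. Eci1 probe sets 2 and 4 fell less (-0.39 and -0.48), and probe set 3 did not pass (-0.12, adjusted p = 0.488). Genes of fatty acid breakdown as well as of synthesis were thus among those lower in fresh TI cells. Of 14 cholesterol synthesis and uptake genes, 11 had lower signal in fresh TI cells and the others did not pass (median -0.56), and 3 fell and 1 rose in culture (median -0.22). Idi1 was -3.34 ± 0.16 and -2.84 ± 0.17 and Sqle was -2.40 ± 0.13 and -1.18 ± 0.14 in fresh TI and cultured cells. The second Idi1 probe set was lower by less, at -0.58 and -1.12. Ebp rose by 0.82 ± 0.09 in culture.

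Between fresh TI and cultured TII cells, the lists of NADPH, citrate, elongation, oxidation and cholesterol genes held more genes lower than higher in fresh TI cells, against 25.8% lower and 34.2% higher over all genes. The NADPH list had 3 of 4 lower and 0 higher, among them Idh1 at -1.51 ± 0.23, and the citrate and acetyl-CoA list 8 of 12 lower and 1 higher, with Mpc1 at -1.19 ± 0.13 against Pdha1 at 0.78 ± 0.10. Elongation and desaturation had 4 of 6 lower and 1 higher, with Hacd3 at -1.14 ± 0.12 (another probe set at 0.29) and Hsd17b12 at -1.12 ± 0.10 against Cyb5r3 at 1.06 ± 0.09. Fatty acid oxidation had 12 of 30 lower and 4 higher, and cholesterol synthesis 9 of 14 lower and 0 higher. The remaining lists were more mixed. Of the 20 transcription factors and regulators 5 were lower and 3 higher, and of 13 glycerolipid genes 3 were lower and 1 higher. The other acyl-CoA genes (9) and the kinase and insulin genes (15) each had 2 lower and 3 higher.

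**Figure D4:**
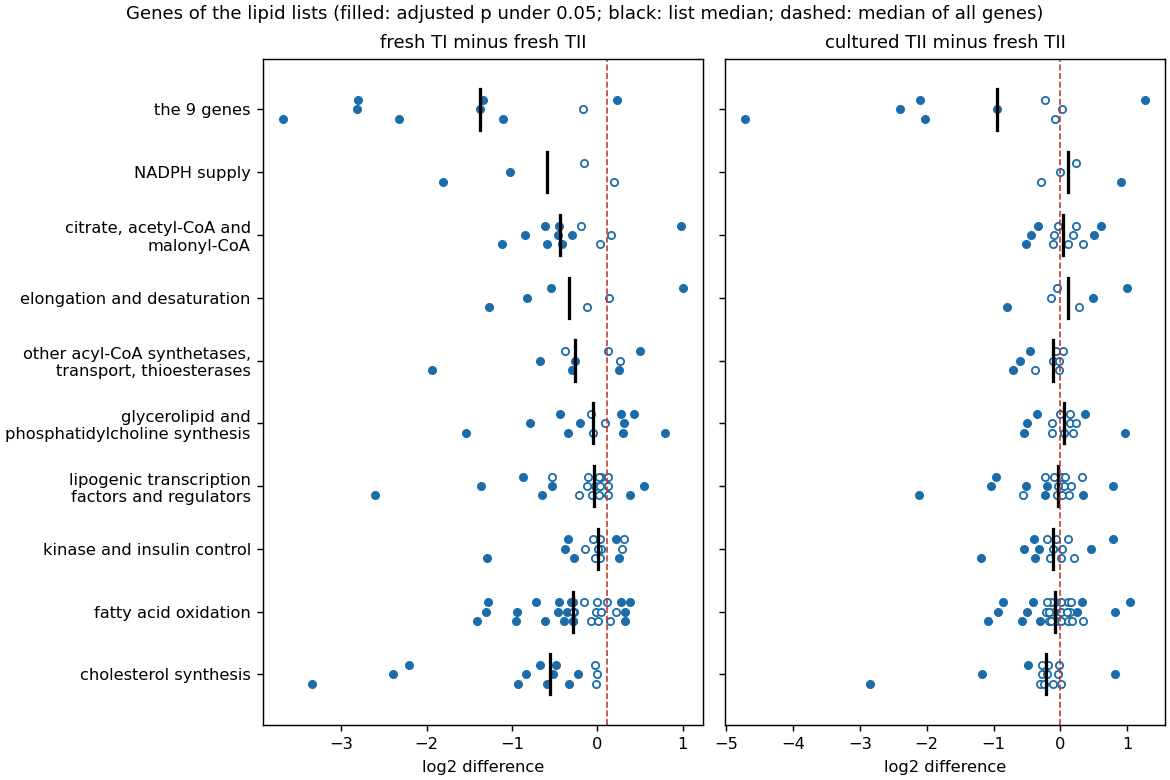
Log2 differences of the measured genes of each list, with the brightest probe set per gene, in fresh TI (left) and cultured TII cells (right) against fresh TII cells; filled points passed an adjusted p of 0.05, black bars are list medians and the dashed line is the median of all genes (0.11 left, -0.01 right). The 9 lipogenic genes have the lowest list median in both panels, -1.37 and -0.95.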

How the data were processed

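RNA of 11 arrays was analysed from the deposited table of log2 values, 1 per probe set and array, as processed by the authors. The summarisation, background correction and normalization steps are not given in the sources used here. Log base 2 was inferred: the maximum, 13.16, corresponds to 9172 in base 2 and to an implausible 520737 in natural logs. Array medians were 5.43 to 5.51, so no further scaling was applied. From 8799 probe sets, 59 controls were set aside, with no filter on dim signal.

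A model of 3 group means was fitted in R 4.3.3 to 8740 probe sets by lmFit and eBayes of limma 3.58.1, with two-sided tests. P-values were Benjamini-Hochberg adjusted over all probe sets of a comparison and called under 0.05. The brightest probe set over all arrays stood for a gene. Having 3 or 4 arrays a group limits precision. The procedure was tested on simulated data.

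The genes and lists were chosen with earlier results of these data known. Named were all probe sets of the 9 genes, up to 3 highest and 3 lowest called genes per list, the 6 genes most like Fasn, and listed markers. Alternatives were quantile normalization, median centring, matched standard deviations, 2 filters on dim probe sets, trended or robust eBayes, array weights, fits on 2 groups, a replicate block, the stricter threshold of 0.01, the mean of a gene's probe sets, and leaving out each array. Promoters are from RefSeq on GRCr8.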

Additional observations from a re-analysis of the deposited data

Results flagged for a closer look

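In groups of 4 arrays, 48 sets of values of the lipogenic probe sets were examined for an array far from the others, a check that picks about 1 group in 20 by chance, and 2 were found. Acly probe set 3 read 6.49 on fresh TII array 1 against 6.85 on the other 3 arrays, and that gap was 0.983 of the group's range. Acsl1 probe set 1 read 6.34 on fresh TII array 4 against 6.21 to 6.23 on the others, a gap of 0.86 of the range. The difference of Acly probe set 3 between fresh TI and fresh TII cells passed under every alternative run, at -1.05 to -0.86 (adjusted p = 2.54e-06 to 6.59e-05), and that of Acsl1 probe set 1 did not, as given with that gene.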

How the results depend on the processing

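Over 1536 recalculations of the 72 probe set differences, 1481 kept their direction and side of the threshold. A further 10 lost a call, 25 gained one with the same sign and 20 changed sign, of which 1 also gained a call. None of the 51 called differences changed sign. Trended or robust eBayes, the dim filters, fits on 2 groups and leaving out arrays of the third group cannot alter a difference. In these settings only the side of the threshold could change, so the kept direction there tests nothing. Leaving out probe sets dimmer than the median, which tests fewer of them, left 2671 called probe sets of 4783 in fresh TI against fresh TII cells and 2993 of 5235 against cultured TII cells, and 13, 11 and 7 called lipogenic probe sets for the fresh TI, the culture and the direct comparison. Leaving out 1 array gave 19 to 22, 17 to 19 and 13 to 14 of these.

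The sign changes, all of differences that had not passed, were as follows for fresh TI against cultured TII cells. Quantile normalization gave -0.0266 for Scd probe set 2, -0.14 for Me1 probe set 5 and -0.11 for Acsl3 probe set 2. Matched standard deviations gave -0.27, -0.19 and -0.21 for these, of which the last passed (adjusted p = 0.0319), and centring gave -0.0151 for Me1 probe set 5 and -0.001 for Acsl3 probe set 2. Array weights gave 0.0643 for Acly probe set 2. Without fresh TI arrays 2 and 3 (added after seeing the data), Fasn probe set 2 was -0.0345, Acaca 0.0542, Scd probe set 2 -0.11 and Me1 probe set 5 -0.034. Leaving out 1 array, Me1 probe set 5 ran from -0.007 to 0.071 (-0.002 without fresh TI array 2), Acsl1 probe set 2 from -0.0457 to 0.0103 and Acsl3 probe set 2 from -2e-04 to 0.0903, and the last from -0.0419 to 0.0027 in fresh TI against fresh TII cells. The cause was not tested.

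Titles share replicate numbers, but deviations from group means correlated at -0.20 to 0.28 for 10 same-number pairs and -0.27 to 0.23 for 30 others, so arrays were not paired. The replicate block gave 4787, 2750 and 4754 called probe sets, and turned Acsl1 probe set 2 to 0.0071 in fresh TI against cultured TII cells.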
